A study of Rattus norvegicus with 7 samples.

Results

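Messenger RNAs encoding 10 proteins of the nuclear transport machinery were followed in an RNA-binding protein immunoprecipitation (RIP) from rat cortical neurons. The set was chosen by the gene symbols of the array platform and holds the importins *Kpnb1*, *Kpna1*, *Kpna2*, *Kpna3*, *Kpna4* and *Kpna6*, the GTPase *Ran* and its partner *Ranbp1*, and the exportins *Xpo1* and *Cse1l*. In the annotation used here 8 of the 10 symbols had a probe, 1 each, among 22523 probes on the array, whereas *Kpna2* and *Kpna6* matched none. Of the 8 probes, 7 were tested.

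All 7 arrays carried RNA from cortical neurons of Sprague-Dawley rats, taken at embryonic day 18 and kept for 9 days in culture. In 2 RIPs the beads carried a polyclonal antibody to TRF2-S, a short neuronal splice form of a telomere-binding protein that binds RNA in the cytoplasm, and in 5 they carried rabbit IgG, the control for RNA that sticks without TRF2-S. The TRF2-S arrays are named TRF2-1 and TRF2-2, and the IgG arrays IgG1, IgG2, IgG3, IgG3_0 and IgG3_1x. The labels number the IgG arrays as 5 replicates without saying that each came from its own culture, so the p-values below measure a spread between arrays that may be partly technical. By their names, IgG3, IgG3_0 and IgG3_1x may share RNA, which the labels do not state. No array of input RNA was analysed here, so the amount of an mRNA in the lysate and the share of it bound cannot be told apart.

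Importin β1, the product of *Kpnb1*, carries proteins through the nuclear pore, most often with an importin α as adaptor that recognizes the nuclear localization signal. Ran in its GTP-bound form frees the cargo inside the nucleus and loads the exportins, and RanBP1 helps to dismantle these complexes on the cytoplasmic side. In rodent sensory neurons the mRNAs of importin β1 and RanBP1 are present in axons, and their local translation after injury forms importin complexes that dynein carries back to the cell body.

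Values are log2 signals, Z-score transformed within each array and put back on the mean (6.98) and SD (1.21) common to the arrays. A probe was called detected on an array at a detection p-value under 0.02, and probes detected on at least 2 of the 7 arrays were tested. Differences are TRF2-S minus IgG, tested with limma and adjusted by Benjamini-Hochberg over all 9187 tested probes, at a threshold of 0.05. One comparison took all 5 IgG arrays as the control and the other IgG1 and IgG2 alone, so both share the 2 TRF2-S arrays and these 2 controls.

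The arrays did not form 1 homogeneous set. Between 7097 and 8326 probes were detected on an array. IgG1, IgG2 and the TRF2-S arrays correlated at 0.977 to 0.991 over the tested probes and the 3 arrays named IgG3 at 0.979 to 0.999, but correlations between the sets were 0.875 to 0.933. The mean intensity was 155 to 216 in the first set and 298 to 608 on the arrays named IgG3. The comparison with IgG1 and IgG2 therefore gives each result without those arrays as controls. They still counted in the detection filter and in the common mean and SD. The common SD, 1.21, is larger than the log2 SDs of IgG1, IgG2 and the TRF2-S arrays, 0.924 to 1.16. The scaling thus stretched the log2 signals of these arrays. All 10 neuron marker probes were detected on both TRF2-S arrays, and 8 to 9 of 10 on the IgG arrays. Of 6 astrocyte marker probes 4 were detected on each TRF2-S array and 4 to 5 on the IgG arrays, with *Gfap* and *Slc1a3* on all 7. At most 1 of 5 microglial and 1 of 3 endothelial marker probes was detected on any array, but 2 to 3 of 6 oligodendrocyte and 3 to 4 of 5 proliferating cell marker probes were.

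No member passed the adjusted threshold in either comparison. Against the 5 IgG arrays 0 of 7 were called, where 0.0327% of all tested probes were (3 of 9187, all higher), and the adjusted p-values of the members ran from 0.41 to 0.78. Against IgG1 and IgG2 0 of 7 were called, where 0.152% of all tested probes were (14 of 9187, of which 13 or 0.142% higher and 1 or 0.0109% lower), with adjusted p-values from 0.37 to 0.79. At an unadjusted limma p under 0.05 there were 3 members in the first comparison (*Kpnb1*, *Kpna4* and *Cse1l*), against 12.1% of all tested probes, and 2 in the second (*Xpo1* and *Cse1l*), against 12.5%. *Kpna4* passed the filter on detection only through the TRF2-S arrays, where it is high, so its place among the 3 carries no weight and 2 of the 6 members detected in IgG are left. The median difference of these 6 was 0.21 against the 5 IgG arrays, beside -0.07 for all tested probes, and 0.20 against IgG1 and IgG2, beside 0.0048. With *Kpna4* added at its lower bound, given below, the medians of 7 were 0.12 and 0.11. The sign was positive for 5 members, *Kpna4* among them, and negative for *Kpna1* and *Cse1l* in both comparisons; 41.3% and 51.4% of all tested probes had a positive difference.

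**Figure D1:**
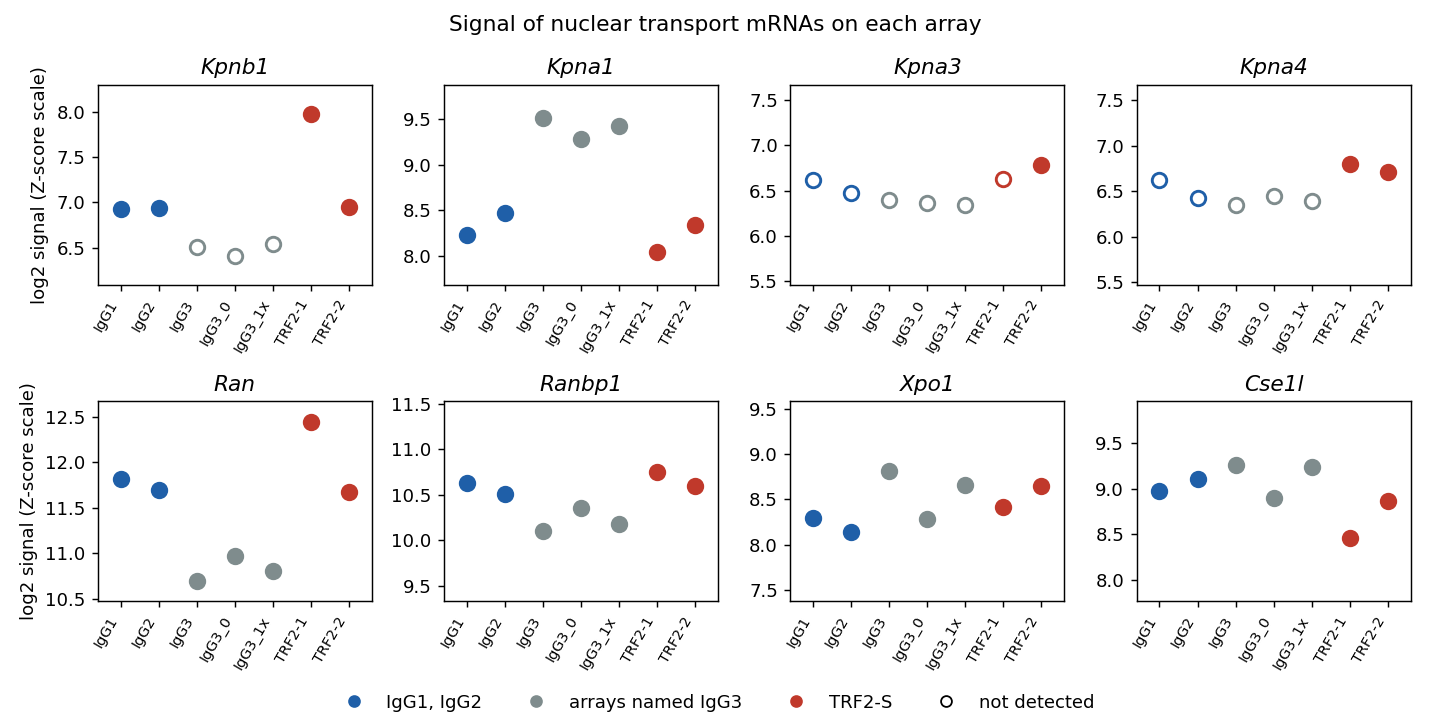
Log2 signal (Z-score scale) of the 8 nuclear transport probes on each of the 7 arrays, 1 panel per gene with its own vertical range, open circles where the probe was not detected. *Kpnb1* stands highest on TRF2-1, at 7.97, while TRF2-2, at 6.95, is level with IgG1 and IgG2, and *Kpna1* is brightest on the 3 arrays named IgG3.

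*Kpnb1*, probe ILMN_1373492, encodes importin β1, the carrier itself. Its log2 signal was 7.97 on TRF2-1 and 6.95 on TRF2-2. The controls read 6.93 (IgG1), 6.94 (IgG2), 6.50 (IgG3), 6.41 (IgG3_0) and 6.54 (IgG3_1x). TRF2-1 thus stood alone, TRF2-2 lay just above IgG1 and IgG2, and the probe was not detected on any of the 3 arrays named IgG3. The deposited intensities were 165.1 on TRF2-1, 105 on TRF2-2, 93 on IgG1 and 103.1 on IgG2, where the dimmest detected probes of these arrays had 86.3, 85.6, 81.5 and 86.5. The probe was thus clearly above that floor on TRF2-1 and nearer to it on the other 3 arrays.

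Against the 5 IgG arrays *Kpnb1* was higher by 0.79 (SE 0.29, 95% confidence interval 0.13 to 1.46, 1.73-fold), with a limma p of 0.025 and an adjusted p of 0.41. Since the probe was detected on 2 of the 5 IgG arrays, the fold rests partly on values below detection, and with these raised to the dimmest detected probe it was 1.65. The mean was 7.46 ± 0.73 (SD, n = 2 arrays) in TRF2-S and 6.66 ± 0.25 (SD, n = 5) in IgG. Against IgG1 and IgG2 the difference was 0.53 (SE 0.29, interval -0.16 to 1.21), with a limma p of 0.11 and an adjusted p of 0.54. This value rested on 1 array: with TRF2-1 alone it was 1.04 and with TRF2-2 alone 0.013. For *Kpnb1* no IgG array reached either TRF2-S array in the 2 comparisons, an order found for 10.3% of all tested probes in the first and 22.5% in the second.

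The α importins, the adaptors that hold the cargo, did not share a direction. *Kpna1* (importin α5 in human nomenclature), probe ILMN_1349854, read 8.04 on TRF2-1 and 8.33 on TRF2-2, 8.23 and 8.47 on IgG1 and IgG2, with 9.52 (IgG3), 9.28 (IgG3_0) and 9.43 (IgG3_1x) on the others. The TRF2-S arrays overlapped IgG1 and IgG2, and the arrays named IgG3 stood above all the others. Their mean was 1.06 above that of IgG1 and IgG2, with no test. The difference for TRF2-S was -0.80 against the 5 IgG arrays (SE 0.38, interval -1.68 to 0.092, adjusted p 0.41 by limma). It was -0.16 against IgG1 and IgG2 (SE 0.14, interval -0.50 to 0.18, adjusted p 0.75 by limma). Without the arrays named IgG3 the difference of *Kpna1* was thus within the spread of the arrays.

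*Kpna4* (importin α3), probe ILMN_1360324, was the member detected on both TRF2-S arrays and on no IgG array. Its log2 signal was 6.80 on TRF2-1 and 6.71 on TRF2-2, and in the controls 6.62 (IgG1), 6.42 (IgG2), 6.34 (IgG3), 6.45 (IgG3_0) and 6.39 (IgG3_1x). The groups did not overlap, but every value lay near the limit of detection, with detection p-values of 0.01333 and 0.01091 on the TRF2-S arrays. Both TRF2-S arrays stood above the 5 IgG arrays for 10.3% of all tested probes, and above IgG1 and IgG2 for 22.5%. Since the probe was not above background in IgG, only a lower bound of the fold is given, as an estimate without an interval. It was 1.09 against the 5 IgG arrays and 1.05 against IgG1 and IgG2. For this bound the dimmest detected probe of an IgG array replaced the value of *Kpna4* wherever that was dimmer still. The limma adjusted p-values, 0.41 and 0.51, belong to the fitted differences and not to the bounds. Against IgG1 and IgG2 the interval of the fitted difference was -0.049 to 0.51. The probe passed the filter only through the TRF2-S arrays, so these tests carry no weight. The measured means were 6.75 ± 0.063 (SD, n = 2) in TRF2-S and 6.44 ± 0.11 (SD, n = 5) in IgG.

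*Kpna3* (importin α4), probe ILMN_1366672, was detected on 1 array only, TRF2-2, and was not tested. Its log2 signal was 6.63 and 6.78 on TRF2-1 and TRF2-2, 6.61 and 6.48 on IgG1 and IgG2, and 6.39, 6.36 and 6.34 on the arrays named IgG3. Both TRF2-S values lay above all IgG values, TRF2-1 only just above IgG1. All these values except that of TRF2-2 were below detection. Among all tested probes that order was found for 10.3% against the 5 IgG arrays and 22.5% against IgG1 and IgG2.

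*Ran*, the GTPase that gives transport its direction, is carried by probe ILMN_2040754, which was detected on every array. Its log2 signal was 12.44 on TRF2-1 and 11.67 on TRF2-2, and in the controls 11.82 (IgG1), 11.70 (IgG2), 10.70 (IgG3), 10.97 (IgG3_0) and 10.81 (IgG3_1x). TRF2-1 was again the highest, TRF2-2 lay just below IgG1 and IgG2, and the arrays named IgG3 formed a separate low set. The difference was 0.86 against the 5 IgG arrays (SE 0.37, interval -0.012 to 1.72, adjusted p 0.41 by limma). Against IgG1 and IgG2 it was 0.30 (SE 0.23, interval -0.25 to 0.84, adjusted p 0.69 by limma), with 0.68 from TRF2-1 alone and -0.088 from TRF2-2 alone. With median centring the order of the TRF2-S arrays was the reverse, as given below.

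The size and the sign for *Ran* against the 5 IgG arrays depended on how the arrays were brought to 1 scale. Centred on the median of each array, with no scaling to a common SD, its log2 signal above that median was 4.51 and 4.96 on TRF2-1 and TRF2-2, 4.36 and 4.72 on IgG1 and IgG2, with 5.68 (IgG3), 4.26 (IgG3_0) and 5.63 (IgG3_1x) on the others. On that scale both TRF2-S arrays lay inside the range of the IgG arrays. The mean of the TRF2-S arrays was there below that of the 5 IgG arrays. Against the 5 IgG arrays the difference of *Ran* was positive, at 0.067, only once the shift of the median of all probes between the scales, -0.27, was taken off. Against IgG1 and IgG2 it was 0.19 with median centring. There TRF2-2 stood above both of these controls and TRF2-1 between them. The log2 SD over all probes was 1.61 on IgG3 and 1.56 on IgG3_1x, and 0.924 to 1.16 on the other 5 arrays.

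*Ranbp1*, probe ILMN_1354512, encodes the Ran-binding protein that assists GTP hydrolysis by Ran. Its log2 signal was 10.75 on TRF2-1 and 10.60 on TRF2-2, 10.63 and 10.51 on IgG1 and IgG2, with 10.10 (IgG3), 10.35 (IgG3_0) and 10.18 (IgG3_1x) on the others. TRF2-2 lay between IgG1 and IgG2. The difference was 0.32 against the 5 IgG arrays (SE 0.17, interval -0.064 to 0.71, adjusted p 0.41 by limma), and it turned to -0.23 with median centring after the same shift was taken off. Against IgG1 and IgG2 it was 0.11 (SE 0.11, interval -0.16 to 0.38, adjusted p 0.79 by limma).

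The exportins went opposite ways against IgG1 and IgG2, neither past the adjusted threshold. *Xpo1*, probe ILMN_1353641, encodes CRM1, the exporter of proteins with a leucine-rich export signal. It read 8.41 on TRF2-1 and 8.65 on TRF2-2, against 8.29 (IgG1), 8.14 (IgG2), 8.81 (IgG3), 8.28 (IgG3_0) and 8.65 (IgG3_1x) in the controls. Both TRF2-S arrays were above IgG1 and IgG2, an order found for 22.5% of all tested probes, and inside the range of the arrays named IgG3. The difference was 0.32 against IgG1 and IgG2 (SE 0.13, interval 0.015 to 0.62, limma p 0.042, adjusted p 0.38). Against the 5 IgG arrays it was 0.096 (SE 0.20, interval -0.38 to 0.57, adjusted p 0.78 by limma), and here median centring turned the sign, to -0.12.

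*Cse1l*, probe ILMN_1355916, encodes CAS, the exportin that returns importin α to the cytoplasm. It was the member with both TRF2-S arrays below every IgG array in both comparisons, an order found for 11.6% of all tested probes in the first comparison and 19.4% in the second. Its log2 signal was 8.46 on TRF2-1 and 8.86 on TRF2-2, 8.98 and 9.11 on IgG1 and IgG2, with 9.26 (IgG3), 8.89 (IgG3_0) and 9.24 (IgG3_1x) on the others. TRF2-2 lay just under IgG3_0 and TRF2-1 well under all arrays. The difference was -0.44 against the 5 IgG arrays (SE 0.16, interval -0.81 to -0.061, 0.739-fold, limma p 0.028, adjusted p 0.41). It was -0.38 against IgG1 and IgG2 (SE 0.15, interval -0.74 to -0.021, 0.768-fold, limma p 0.041, adjusted p 0.37).

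**Figure D2:**
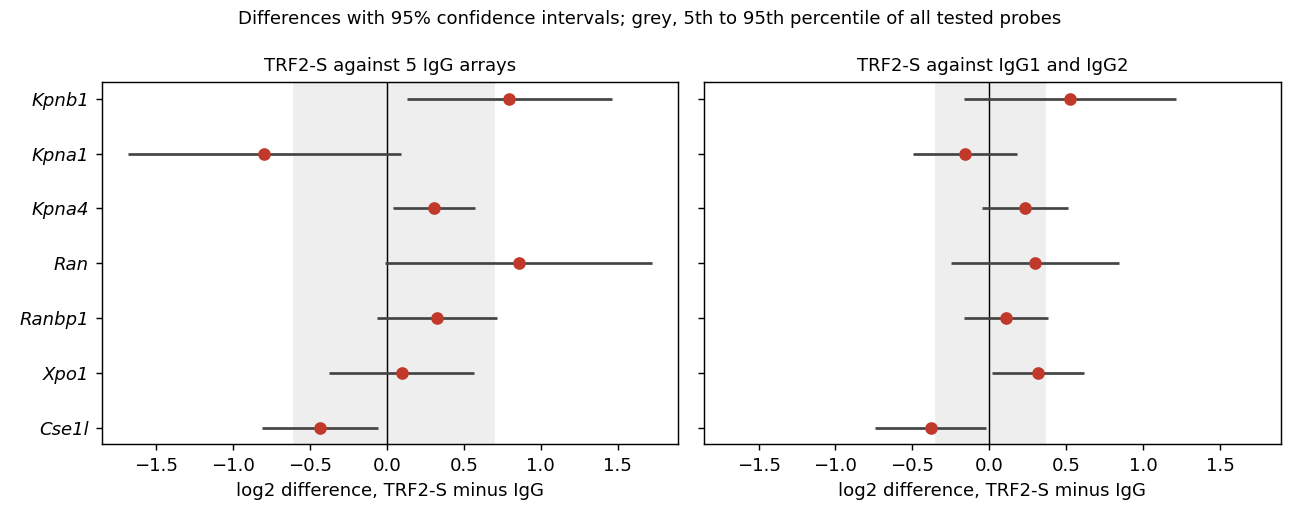
Log2 difference, TRF2-S minus IgG, of the 7 tested members with its 95% confidence interval (horizontal bars), against the 5 IgG arrays on the left and IgG1 and IgG2 on the right, with the 5th to 95th percentile of all tested probes in grey. *Kpnb1* (0.79 and 0.53) lies beyond the grey band in both panels, but its interval on the right, -0.16 to 1.21, crosses 0. *Ran* (0.86) and *Kpna1* (-0.80) also lie beyond the band on the left, and *Cse1l* (-0.38) on the right. The intervals of *Kpna1*, *Ran* and *Ranbp1* cross 0 in both panels.

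Among all 9187 differences, that of *Kpnb1* stood at percentile 96.1 against the 5 IgG arrays and 98.2 against IgG1 and IgG2. *Ran* stood at percentile 96.7 and 93. *Kpna1* was at 1.65 in the first comparison and 17.8 in the second, and *Cse1l* at 13.1 and 3.9. These places are by size alone and take no account of the spread between arrays, which for *Kpnb1* was an SD of 0.73 between the 2 TRF2-S arrays.

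In 14 to 15 alternative limma fits per member against the 5 IgG arrays and 11 to 12 against IgG1 and IgG2, no member was called. With the arrays named IgG3 averaged into 1 control, the limma adjusted p was 0.85 for each tested member. *Kpnb1*, *Kpna1* and *Cse1l* kept their sign in every fit, whereas *Ran*, *Ranbp1* and *Xpo1* each changed sign in at least 1. *Kpna4* also kept its sign once shifts of the median of all probes were taken off. It passed the filter on detection only through the TRF2-S arrays, so its sign carries no weight. The difference of *Kpnb1* ranged from 0.28 to 1.73 in the first comparison, the highest with neqc, which subtracts background estimated from the probes. In the second comparison it ranged from 0.013 to 1.04, and that of *Kpna1* from -0.30 to -0.012. The fits share the same arrays, so a kept sign that close to 0 says little.

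**Figure D3:**
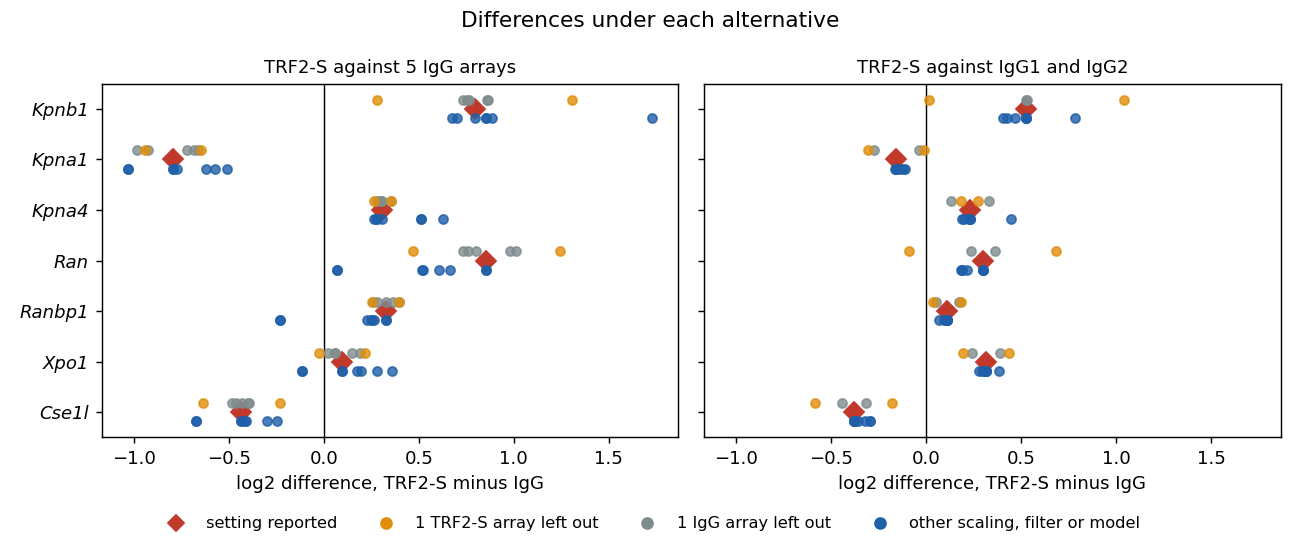
Log2 difference, TRF2-S minus IgG, of the 7 tested members in the setting reported (red diamonds), with 1 TRF2-S array left out (orange), 1 IgG array left out (grey) or another scaling, filter or model (blue), for both comparisons. Leaving out a TRF2-S array moves *Kpnb1* and *Ran* most, with *Kpnb1* against IgG1 and IgG2 at 0.013 or 1.04.

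The rest of the nuclear transport machinery was followed through 5 lists of 74 genes, of which 53 had a probe and 43 were tested. None was called in either comparison. Against the 5 IgG arrays 9 of 43 had a positive difference, with a median of -0.17 beside -0.07 for all tested probes. At an unadjusted limma p under 0.05, 0 were higher and 4 lower (*Ipo4*, *Ipo13*, *Rae1* and *Ddx39b*), where 6.06% of all tested probes were in each direction. Against IgG1 and IgG2 22 of 43 were positive, with a median of 9.08e-05, and 1 was higher (*Nup98*, 0.34) and 0 lower, where 6.51% and 6.02% of all tested probes were. *Ipo4*, *Rae1* and *Nup98* are named after their values were seen.

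By role, the 8 other importins tested had median differences of -0.15 against the 5 IgG arrays and -0.02 against IgG1 and IgG2. The brightest of them were *Ipo13*, a carrier that works in both directions, with -0.59 and -0.30 (limma adjusted p 0.41 and 0.53), and *Tnpo3*, which imports splicing factors, with -0.12 and -0.04. Of the other exportins 2 were tested: *Xpo7* had -0.14 and 0.28 and the tRNA exporter *Xpot* -0.39 and -0.04. For the Ran cycle, *Rangrf* had -0.16 and -0.28, and *Nutf2*, which brings Ran back into the nucleus, -0.12 and -0.06. None of these genes passed the adjusted threshold.

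The 23 nucleoporins tested, the building blocks of the pore, spread around a median of -0.20 against the 5 IgG arrays and 9.08e-05 against IgG1 and IgG2. The scaffold subunit *Nup205* had -0.26 and 0.02, and *Nup88*, which lies on the cytoplasmic face, -0.24 and 0.13. Of the 8 mRNA export genes tested, *Thoc7*, a subunit of the THO complex, had 0.36 and -0.11. The helicase *Ddx39b* had -0.43 and -0.34 (limma adjusted p 0.41 and 0.46), with both TRF2-S arrays below all IgG arrays. That order was found for 11.6% of all tested probes in the first comparison and 19.4% in the second.

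Of 20 genes listed as retrograde axonal signals, the transcription factors, kinases and scaffolds carried from axon to nucleus, 13 were tested and none was called. Their median was -0.26 against the 5 IgG arrays and -0.06 against IgG1 and IgG2. The brightest were *Mapk8ip1*, a JNK scaffold on transported vesicles, with -0.30 and -0.46 (limma adjusted p 0.46 and 0.35), and *Atf4*, a stress-responsive transcription factor, with -0.15 and -0.18.

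All 19 dynein and dynactin genes were tested and none was called. The brightest, the light chains *Dynll1* and *Dynlrb1*, had 0.89 and 0.66 against the 5 IgG arrays (limma adjusted p 0.41 and 0.43), and 0.13 and -0.03 against IgG1 and IgG2. At an unadjusted limma p under 0.05, 5 of 19 were lower in the first comparison, where 6.06% of all tested probes were, and 3 of 19 in the second, where 6.02% were, with 0 higher in either. The 5 were *Dynlt3*, *Pafah1b1*, *Dctn1*, *Dctn2* and *Dctn6*. The 3 were the dynactin subunits *Dctn1* (-0.41), *Dctn2* (-0.80) and *Dctn6* (-0.44), with limma adjusted p-values against IgG1 and IgG2 of 0.38, 0.14 and 0.24. These 5 genes were named after their values were seen.

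**Figure D4:**
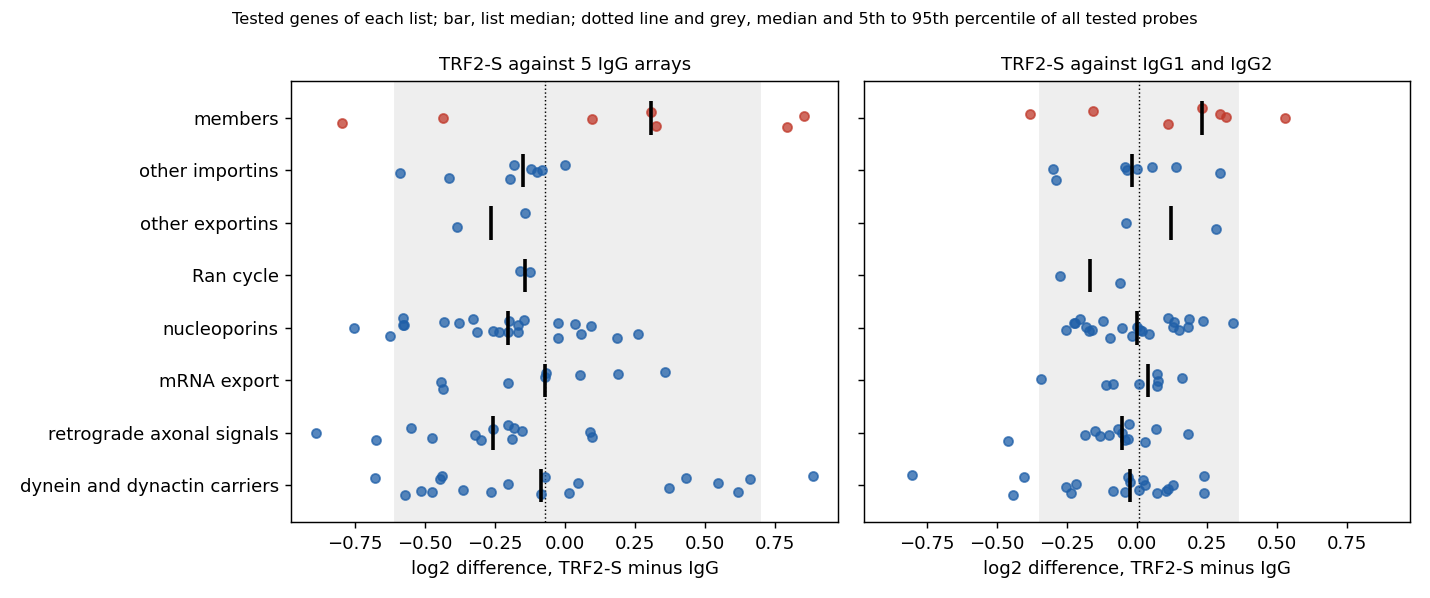
Log2 difference, TRF2-S minus IgG, of each tested member (red) and of each tested gene of 7 related lists (blue), against the 5 IgG arrays on the left and IgG1 and IgG2 on the right, with the list median as a bar and the median and 5th to 95th percentile of all tested probes as dotted line and grey band. The median bars of the 7 members, 0.31 and 0.23, are the fitted values of *Kpna4*, for which only a lower bound holds. In the left panel the medians of the other lists lie near the dotted line or to the left of it.

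Levels of cell type markers were set beside the members. The mean log2 signal of the 6 astrocyte probes, detected or not, was 8.27 to 8.42 on the TRF2-S arrays, 8.50 to 8.58 on IgG1 and IgG2, and 8.38 to 8.58 over all IgG arrays. The 10 neuron markers had means of 9.25 to 9.29 on the TRF2-S arrays, 9.11 to 9.24 on IgG1 and IgG2, and 9.11 to 9.59 over all IgG arrays. These are levels in RNA recovered on the beads, not in the cells. Recovery, the number of cells of a type and the RNA per cell cannot be told apart here. The part of these levels in the values of the members was not tested.

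The genes whose signal ran most like that of *Kpnb1* over the 7 arrays, out of 6591 named genes, were *Gpsm1*, *Cox17*, *Yy1*, *Tagln2* and *Zfp131*, with Pearson's r from 0.97 to 0.99, and 42 genes exceeded 0.9. For *Ran* they were *Vom1r67*, *Gpx4*, *Dennd2b*, *Alg6* and *LOC313310*, with r from 0.985 to 0.993, and 432 genes exceeded 0.9. *Gpsm1*, *Yy1*, *Dennd2b* and *Alg6* were detected on 4 of the 7 arrays and *Tagln2* on 3, the others on all 7. *Kpnb1* itself was not detected on the arrays named IgG3, so part of these correlations rests on background values. The correlations describe 7 arrays that fall into separate sets, and the points of each gene share the same libraries.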

How the data were processed

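Single-colour Illumina rat Ref-12 arrays were analysed, 5 of the IgG and 2 of the TRF2-S RIP. The authors deposited signal intensity per probe, not normalized between arrays, with a detection p-value set against the negative control beads; GenomeStudio 2011.1 is given in the submitters' processing notes. The deposited score per probe equalled the Z-score of the log intensity to within 5e-10, with array medians from -0.474 to -0.378; the base of its logarithm is unknown and cancels.

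The log2 intensities were Z-score transformed per array as in the methods, without background subtraction, which understates changes of dim probes. limma 3.58.1 in R 4.3.3 (lmFit, eBayes) was run and first tested on simulated data. The number of arrays limits the precision. Of 22523 probes, 13793 carry a gene symbol, 6712 of them among the 9187 tested. Named are every member probe, the 2 brightest tested genes of each list and any called, and the 5 genes most like *Kpnb1* and *Ran*. A gene with several tested probes is given by its brightest. Members and lists were chosen with earlier results of these data known. Array scaling, probe filters, handling of the arrays named IgG3 and arrays left out were varied.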

Additional observations from a re-analysis of the deposited data

How the results depend on the processing

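The number of all tested probes called against the 5 IgG arrays, 3, became 0 with median centring, without normalization, with probes detected on every array or with the arrays named IgG3 averaged, 1 with these as a random block, 5 after quantile normalization, 10 with neqc and 0 to 1 with 1 array left out. Against IgG1 and IgG2 the 14 calls became 0 with median centring or without normalization, 36 without a filter, 39 in a fit of 7 arrays in 3 groups, 102 with neqc, 554 after quantile normalization and 0 to 298 with 1 array left out (298 without IgG1, 46 without IgG2, 0 without either TRF2-S array, where the lone TRF2-S array was assumed to vary like the others). The methods' analysis of variance passed 852 probes unadjusted and 2 after Benjamini-Hochberg against the 5 IgG arrays. By it 2 members passed unadjusted there, *Kpna4* (analysis of variance p 0.014) and *Cse1l* (p 0.042). Against IgG1 and IgG2 it passed 693 probes unadjusted and 0 after Benjamini-Hochberg, with 0 members. The methods combined it with limits on a Z-test, a false discovery rate and a z-ratio, which were not applied here.

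Array numbers 1 and 2 recur in both groups, and the labels do not say whether like-numbered arrays belong together. Deviations from the group means correlated at 0.278 for IgG1 with TRF2-1 and at -0.278 for IgG1 with TRF2-2. With 2 arrays in each group these are 1 value with opposite signs, which cannot decide whether the arrays were paired. With a replicate block 648 probes passed against IgG1 and IgG2 and 0 members, whose limma adjusted p ran from 0.063 (*Cse1l*) to 0.68 (*Ranbp1*).

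*Ranbp1* (-0.23) and *Xpo1* (-0.12) reversed against the 5 IgG arrays with median centring and without normalization, after shifts of the median of all probes of -0.27 and -0.55 were taken off. With 1 array left out *Xpo1* ran there from -0.024 (without TRF2-2) to 0.22, and *Ran* against IgG1 and IgG2 from -0.088 (without TRF2-1) to 0.68. The cause was not tested. The other 98 and 82 alternative values kept their sign, counted after such shifts were taken off. Before that, *Ran* against the 5 IgG arrays was negative with median centring and without normalization, and *Kpna4* was negative without normalization. *Kpna3* and *Kpna4* lie close to background on every array and *Kpnb1* on every array except TRF2-1, which limits what their differences can show.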
